A study of Homo sapiens with 12 samples.

Results

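NEAT1 and MALAT1 are long noncoding RNAs that stay in the nucleus, and they were examined together with SFPQ, NONO, PSPC1 and RBM14, which encode core proteins of the paraspeckle. The 6 genes were chosen by name and not by a measured value, although earlier results of these data were known. All 6 were found among the 15074 genes of the authors' deposited tables. RNA was sequenced from HCT116, an established human colorectal carcinoma line, in 4 groups of 3 libraries: parental cells, cells labelled as AGO2 knockout, and AGO2 knockout cells carrying FH-AGO2 as wild type (FH-WT) or as the 5xA mutant (FH-5xA). In cells, microRNAs bring AGO2, an Argonaute protein, to the RNAs they pair with, and 5xA replaces a cluster of its phosphorylated residues with alanine. FH-WT and FH-5xA share the knockout background, and no further treatment is given in the labels. Wells of each line were seeded with 500000 cells and harvested after 48 h, and ribosomal RNA was removed before stranded library preparation.

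Each group is a single line grown in triplicate wells, so the errors measure the spread between wells, and effects of AGO2 cannot be told apart from other differences between lines. The tables hold group comparisons with no value for any single library, so depth per library is unknown and each value below is a fold change between groups, or a group level fitted from those fold changes. A fold change is on the log2 scale, and ± is a standard error (SE) derived from the deposited test score. A gene is called at a false discovery rate (FDR) under 0.05 over all genes.

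The labels were first checked by AGO2 mRNA, which does not show whether AGO2 protein was lost. In the authors' deposited tables AGO2 mRNA fell by 0.35 ± 0.07 in knockout against parental cells (edgeR FDR 1.42e-06), and against the knockout it rose by 0.75 ± 0.07 with wild-type and by 0.73 ± 0.07 with 5xA FH-AGO2 (edgeR FDR 1.05e-24 and 3.16e-24). Both lines also exceeded parental cells in AGO2 mRNA, FH-WT by 0.40 ± 0.07 and FH-5xA by 0.38 ± 0.07 (edgeR FDR 6.78e-08 and 1.41e-07). Of 10 colorectal epithelial markers 6 were measured, and 3 of them were called lower in the knockout in the authors' deposited table, beside 21.2% of all genes. These were CDH1 (-0.97 ± 0.08), the adhesion gene EPCAM (-0.58 ± 0.07) and the keratin KRT18 (-0.46 ± 0.08). KRT8, CDX2 and KRT19 were not called there, at -0.36, -0.04 and 0.12 (edgeR FDR 0.0518, 0.814 and 0.524). Of 12 markers of fibroblasts and embryonic kidney cells only PAX2 and COL1A1 were measured, at mean log2 CPM values of 1.19 and 1.64. Both were called higher in the knockout in the authors' deposited table (0.85 ± 0.20 and 0.59 ± 0.23), beside 23.2% of all genes. The COL1A1 call was lost at an FDR of 0.01 and with an F distribution of 1 and 8 degrees of freedom (adjusted p = 0.0894). In bulk RNA fewer cells of a type and less RNA per cell cannot be told apart, and the part of these marker changes in the results below was not tested.

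Paraspeckles are nuclear bodies that form on the long form of NEAT1 and hold proteins and RNAs in the nucleus. SFPQ, NONO and PSPC1 belong to one family of RNA-binding proteins that pair with each other along NEAT1, and RBM14 carries a prion-like region that helps to join the assembly. MALAT1 lies beside NEAT1 on the chromosome and resides in nuclear speckles, neighbouring bodies rich in splicing factors. MALAT1 and the long form of NEAT1 are not polyadenylated in the usual way. RNase P cuts them before a tRNA-like element, and the new end folds into a triple helix that protects it from decay.

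In the GENCODE 29 annotation of GRCh38, NEAT1 (ENSG00000245532) occupies chromosome 11 from 65422774 to 65445540 on the plus strand, and MALAT1 (ENSG00000251562) lies downstream on the same strand, from 65497688 to 65506516. The short NEAT1 transcript, NEAT1-201, has 3441 bases in 2 exons, and the long one, NEAT1-202, has 22743 bases in 1 exon. MALAT1-202 has 8708 bases in 1 exon. The deposited values are per gene, so the short and the long NEAT1 RNA cannot be told apart in them.

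The 3′ ends that form the triple helix are shown first, because they are what the transcripts of both genes share. Each is exonic and noncoding, is written 5′ to 3′ on the plus strand as DNA letters of the GENCODE 29 transcripts, and has in capitals, in order, the U-rich run TTTCTTTT, the U-rich run TTTTGCTTTT and the A-rich tail AAAAAGCAAAA.
NEAT1-202, chr11:65445431-65445540: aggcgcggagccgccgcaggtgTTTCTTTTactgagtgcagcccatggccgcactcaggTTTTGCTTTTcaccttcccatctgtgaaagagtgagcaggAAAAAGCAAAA
MALAT1-202, chr11:65506007-65506116: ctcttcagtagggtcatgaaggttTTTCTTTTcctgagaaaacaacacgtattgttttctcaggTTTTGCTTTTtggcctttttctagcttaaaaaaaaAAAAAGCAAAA
The capital letters were picked as runs that both sequences hold. The NEAT1 window ends the annotated transcript, and the MALAT1 window ends 353 bases before its annotated transcript does. Searched on the transcript strand only, the 3 runs in this order within 110 bases occurred in 2 of 57133 annotated gene names, MALAT1 and NEAT1. Singly they were held by 0.945%, 0.0755% and 0.0283% of 2778880 transcript windows of 110 bases.

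Because AGO2 acts through microRNAs, the transcripts were also read for matches to the seeds of 8 widely studied microRNA families. A seed is bases 2 to 8 of the microRNA, and a match is its reverse complement on the transcript strand. The mature microRNAs below are from RefSeq (GRCh38.p14), with the seed in capitals. They are shown because miR-29a has the most matches in NEAT1, let-7a has matches in NEAT1 and none in MALAT1, and miR-17 has the same number in both.
hsa-miR-29a-3p: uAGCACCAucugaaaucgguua
hsa-let-7a-5p: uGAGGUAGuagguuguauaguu
hsa-miR-17-5p: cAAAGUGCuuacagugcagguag
NEAT1-201 held no match to any of the 8 families. NEAT1-202 held 24 matches to 7 families: 6 for miR-29a, 5 for miR-34a, 4 for miR-200b, 3 each for let-7a and miR-15a, 2 for miR-17 and 1 for miR-19b. MALAT1-202 held 7 matches to 4 families, with 2 each for miR-17, miR-200b and miR-15a and 1 for miR-21. All 24 matches of NEAT1-202 lie beyond the stretch it shares with the short transcript, the first one starting at base 4464. The let-7 match CTACCTC was present in 74.6% of 71 transcript windows as long as NEAT1-202, in 44.3% of 1995 windows as long as MALAT1-202 and in 22.4% of 27440 windows as long as NEAT1-201. For the miR-17 match GCACTTT these shares were 67.6%, 54.5% and 27.7%, and for the miR-29a match TGGTGCT 83.1%, 54.0% and 32.3%. A match describes letters and does not show that AGO2 was bound there.

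Of the 3 let-7a matches of NEAT1, 2 are shown in their surroundings with the 2 miR-17 matches of MALAT1, 29 bases each on the plus strand of GRCh38, with the match in capitals and the coordinates of the match.
NEAT1, chr11:65437547-65437553: gaagggaagccCTACCTCattattctact
NEAT1, chr11:65437729-65437735: tcttggtctgtCTACCTCggcatctagtt
MALAT1, chr11:65498276-65498282: ttgccttgtgaGCACTTTcaggagagcct
MALAT1, chr11:65503278-65503284: tatcaaccatgGCACTTTctcctgacccc

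**Figure D1:**
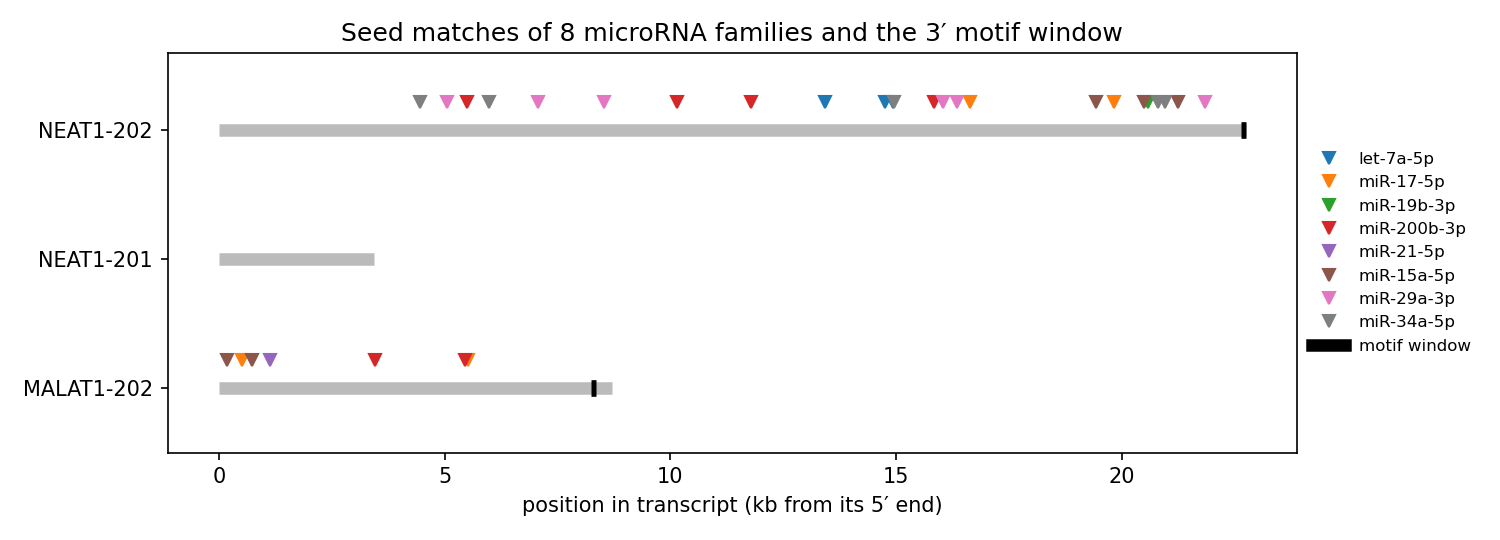
Positions of seed matches to 8 microRNA families (triangles, coloured by family) along 3 annotated transcripts, in kb from the 5′ end, with the window of the 3 runs as a black mark. The 24 matches of NEAT1-202 start at base 4464 and beyond, NEAT1-201 has none, and MALAT1-202 has 7.

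NEAT1 RNA was higher in all 3 AGO2-modified lines than in parental cells. Its fitted level, in CPM (read counts scaled to library size), was 52.6 in parental cells, 90.2 in the knockout, 75.9 with FH-WT and 108.5 with FH-5xA. Parental cells were thus lowest and FH-5xA highest. In the authors' deposited table the knockout exceeded parental cells by 0.78 ± 0.10, or 1.72-fold (edgeR FDR 2.99e-13). FH-WT exceeded parental cells by 0.53 ± 0.10, or 1.44-fold, and FH-5xA by 1.05 ± 0.10, or 2.06-fold, in the authors' deposited tables (edgeR FDR 3.04e-06 and 4.55e-23). These 3 comparisons share the parental libraries. A rise this size in the knockout was uncommon among well measured genes: of 8549 genes with a mean of at least 16 CPM, 279 lay above NEAT1.

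Neither form of FH-AGO2 gave a called change of NEAT1 against the knockout. The values stood on opposite sides of zero, at -0.25 ± 0.10 for FH-WT and 0.27 ± 0.10 for FH-5xA in the authors' deposited tables (edgeR FDR 0.0964 and 0.0601). Set directly against each other, FH-5xA exceeded FH-WT by 0.52 ± 0.10, or 1.43-fold (95% interval 0.32 to 0.71), and this was the single called difference among the 6 genes (chi-square with solved group variances, Benjamini-Hochberg adjusted p = 0.00027). Of the 8549 genes at 16 CPM or more, 53 had a larger difference in this direction. No deposited table compares FH-5xA with FH-WT, and the call rests on how the error is derived. With an F distribution of 1 and 8 degrees of freedom the adjusted p was 0.358, a setting under which 0 of all genes were called in this difference. With the squared errors of both knockout comparisons, or both parental comparisons, summed as if independent it was 0.158 and 0.207. The marker genes CDH1 and COL1A1 also differed between FH-5xA and FH-WT, by 0.43 ± 0.10 and 0.79 ± 0.23 (same test, adjusted p = 0.0020 and 0.024), and their part in the NEAT1 difference was not tested.

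MALAT1 had the highest mean of all 15074 genes, at 12.96 log2 CPM in the authors' deposited tables. Its fitted level was 6278 CPM in parental cells, 8339 in the knockout, 7887 with FH-WT and 9293 with FH-5xA, which is the order seen for NEAT1. MALAT1 rose in the authors' deposited tables against parental cells by 0.41 ± 0.12 in the knockout (1.33-fold, edgeR FDR 0.00226). The authors' deposited tables put its rise at 0.33 ± 0.12 for FH-WT and 0.57 ± 0.12 for FH-5xA (each against parental cells, edgeR FDR 0.0209 and 1.57e-05). The FH-WT call was lost with the F distribution (adjusted p = 0.0879) and at an FDR of 0.01.

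In the authors' deposited tables against the knockout, MALAT1 stood at -0.08 ± 0.12 with FH-WT and 0.16 ± 0.12 with FH-5xA, and neither was called (edgeR FDR 0.746 and 0.449). FH-5xA minus FH-WT was 0.24 ± 0.12 (95% interval 0.0022 to 0.47), and the chi-square test with Benjamini-Hochberg adjustment over all genes did not call it (p = 0.0479, adjusted p = 0.253). In the order of levels, only the step from parental cells to FH-WT was called for either RNA. The steps from FH-WT to the knockout and from the knockout to FH-5xA were not.

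SFPQ, a splicing and transcription factor needed for paraspeckles, had fitted levels of 569 CPM in parental cells, 465 in the knockout, 580 with FH-WT and 509.6 with FH-5xA. The knockout was lowest, and parental and FH-WT cells were close together. In the authors' deposited table SFPQ fell by 0.29 ± 0.12 in the knockout against parental cells (edgeR FDR 0.0443). The call was lost with the F distribution (adjusted p = 0.109), with the median of all genes subtracted (adjusted p = 0.0571) and at an FDR of 0.01. Against the knockout, the authors' deposited tables put SFPQ at 0.32 ± 0.12 with FH-WT and 0.13 ± 0.12 with FH-5xA, neither called (edgeR FDR 0.0777 and 0.553). Against parental cells it stood at 0.03 ± 0.12 and -0.16 ± 0.12 in the authors' deposited tables (edgeR FDR 0.884 and 0.31).

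NONO, the usual partner of SFPQ, was called in none of the comparisons. Its fitted levels were 551 CPM in parental cells, 492 in the knockout, 564 with FH-WT and 483 with FH-5xA. As for SFPQ, the FH-WT level was the highest of the 4. Against parental cells the authors' deposited tables put NONO at -0.16 ± 0.09 for the knockout, 0.03 ± 0.09 for FH-WT and -0.19 ± 0.09 for FH-5xA (edgeR FDR 0.146, 0.812 and 0.0918). NONO against the knockout was at 0.20 ± 0.09 with FH-WT and -0.02 ± 0.09 with FH-5xA in the authors' deposited tables (edgeR FDR 0.167 and 0.912). The FH-5xA minus FH-WT difference was -0.22 ± 0.09 (95% interval -0.41 to -0.04) and was not called after Benjamini-Hochberg adjustment of the chi-square test over all genes (p = 0.0178, adjusted p = 0.154).

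PSPC1, the third member of that protein family, lay nearest to zero of the 6 genes in the knockout, and its fold changes against parental cells ran from -0.06 ± 0.11 in FH-5xA to 0.09 ± 0.11 in the knockout in the authors' deposited tables (edgeR FDR 0.712 and 0.53). Its fitted levels lay between 120.6 CPM in FH-5xA and 133 CPM in the knockout. Against the knockout PSPC1 stood at -0.02 ± 0.11 with FH-WT and -0.14 ± 0.11 with FH-5xA in the authors' deposited tables, neither called (edgeR FDR 0.933 and 0.436). RBM14, the paraspeckle protein with the prion-like region, was likewise called nowhere. RBM14 had fitted levels of 77.5 CPM in parental cells, 68.2 in the knockout, 70.8 with FH-WT and 68.7 with FH-5xA. Against parental cells RBM14 stood in the authors' deposited tables at -0.19 ± 0.10 for the knockout, -0.13 ± 0.11 for FH-WT and -0.17 ± 0.10 for FH-5xA (edgeR FDR 0.138, 0.36 and 0.173). Against the knockout it stood at 0.06 ± 0.11 with FH-WT and 0.01 ± 0.10 with FH-5xA in the authors' deposited tables (edgeR FDR 0.809 and 0.964). RBM14 overlaps the readthrough gene RBM14-RBM4, so reads may be split between them and its values are uncertain. FH-5xA minus FH-WT was -0.19 ± 0.12 for SFPQ, -0.12 ± 0.11 for PSPC1 and -0.04 ± 0.11 for RBM14 (chi-square with Benjamini-Hochberg adjustment, adjusted p = 0.415, 0.575 and 0.871).

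**Figure D2:**
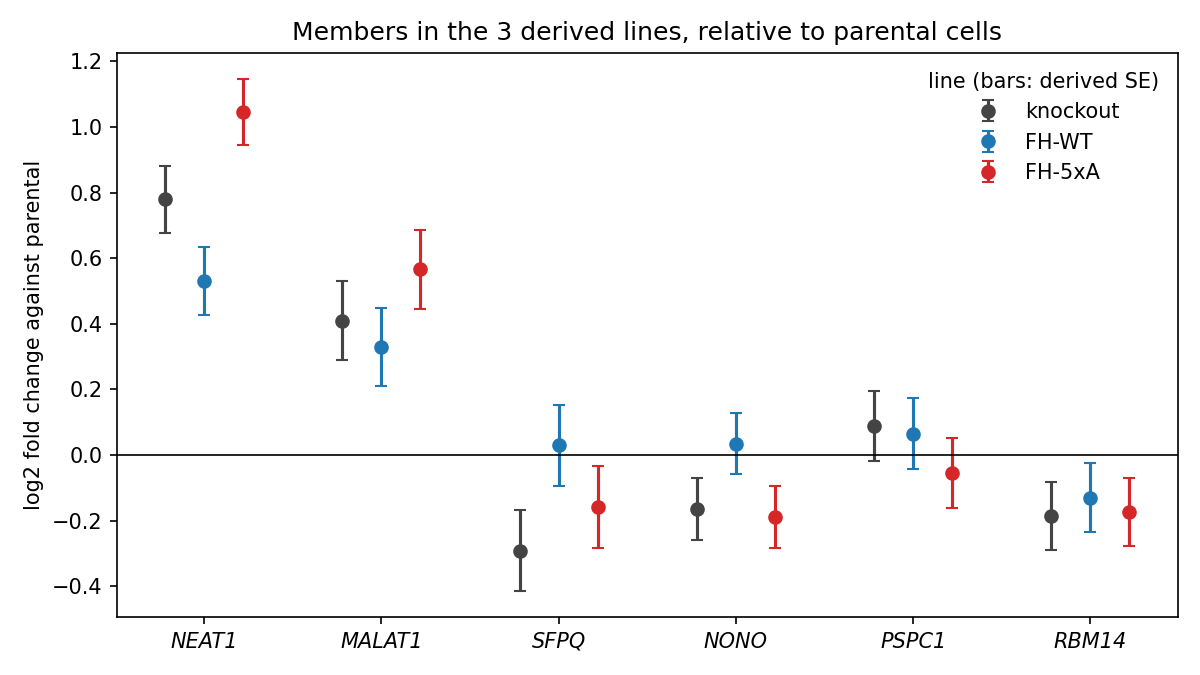
Log2 fold change of the 6 genes against parental cells in the knockout, FH-WT and FH-5xA lines (points, with the derived SE as bars), from the authors' deposited tables. NEAT1 runs from 0.53 in FH-WT to 1.05 in FH-5xA and MALAT1 from 0.33 to 0.57, while the 4 protein genes stay between -0.29 and 0.09.

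Read over the 6 genes, knockout against parental cells called 2 higher and 1 lower in the authors' deposited table. Over all genes this comparison called 44.4%, with 23.2% higher and 21.2% lower, so 3 of 6 was close to the background. FH-WT against the knockout called none of the 6 in the authors' deposited table by edgeR, against 10.1% of all genes (4.21% higher and 5.85% lower). At an unadjusted p under 0.05, SFPQ and NONO were on the higher side and NEAT1 on the lower side there. FH-5xA against the knockout also called none in the authors' deposited table by edgeR, against 11.3% of all genes (5.04% higher and 6.24% lower), and only NEAT1 had an unadjusted p under 0.05.

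With the F distribution both of these counts were likewise 0 of 6. That setting called only 86 of all genes in FH-WT and 92 in FH-5xA against the knockout. Counts of 0 of 6 are therefore not particular to these genes. Against parental cells, FH-WT called 2 of the 6 higher and none lower in the authors' deposited table, where 34.4% of all genes were called (18.3% higher and 16.1% lower). FH-5xA did the same in the authors' deposited table, where 43.8% were called (22.9% higher and 20.9% lower). For FH-5xA minus FH-WT, 1 of 6 was called, against 4.11% of 15072 genes (1.98% higher and 2.13% lower). The median over the 6 genes lay between -0.11 and 0.07 in the 6 comparisons, beside -0.01 to 0.01 for all genes.

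**Figure D3:**
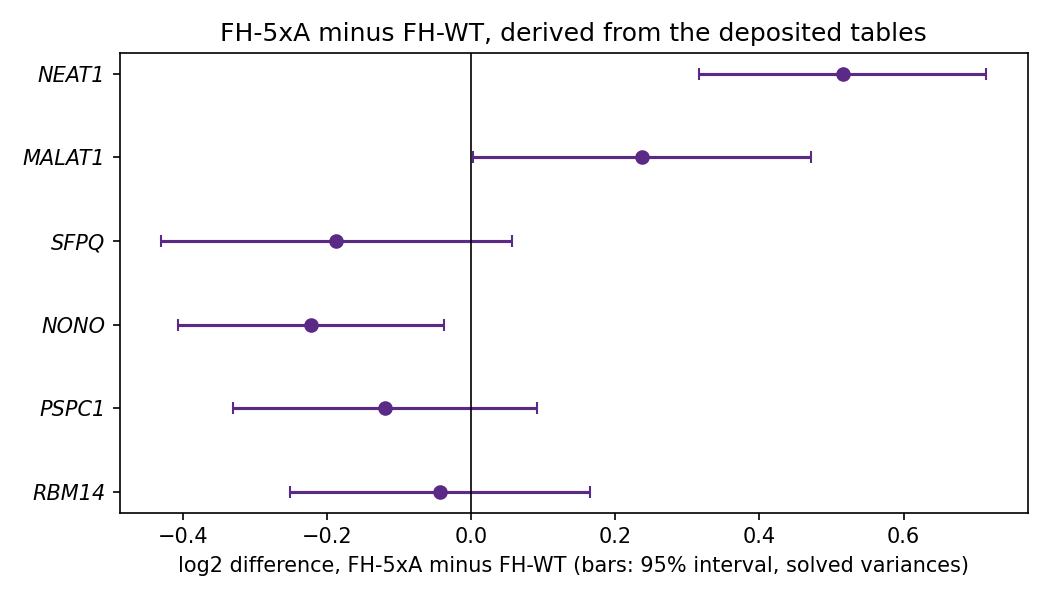
Log2 difference of FH-5xA minus FH-WT for the 6 genes (points) with its 95% interval (bars), derived from the authors' deposited tables with solved group variances. NEAT1 at 0.52 was the single called gene, and SFPQ, NONO, PSPC1 and RBM14 lie below zero at -0.04 to -0.22, none of them called.

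Levels can be compared between genes only per length, here as mean CPM per kb of annotated exon. MALAT1 was at 900.4, NONO at 98.7, SFPQ at 71.5, PSPC1 at 26.5, RBM14 at 18.1 and NEAT1 at 3.59. NEAT1 was lowest over its full exon length of 22767 bases. That length is nearly all of the long transcript, so reads confined to the short one would count over more exon than the short RNA has. The order of the 6 genes was the same in parental cells, where MALAT1 was at 711 CPM per kb and NEAT1 at 2.31, and in FH-5xA, where they were at 1053 and 4.77.

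**Figure D4:**
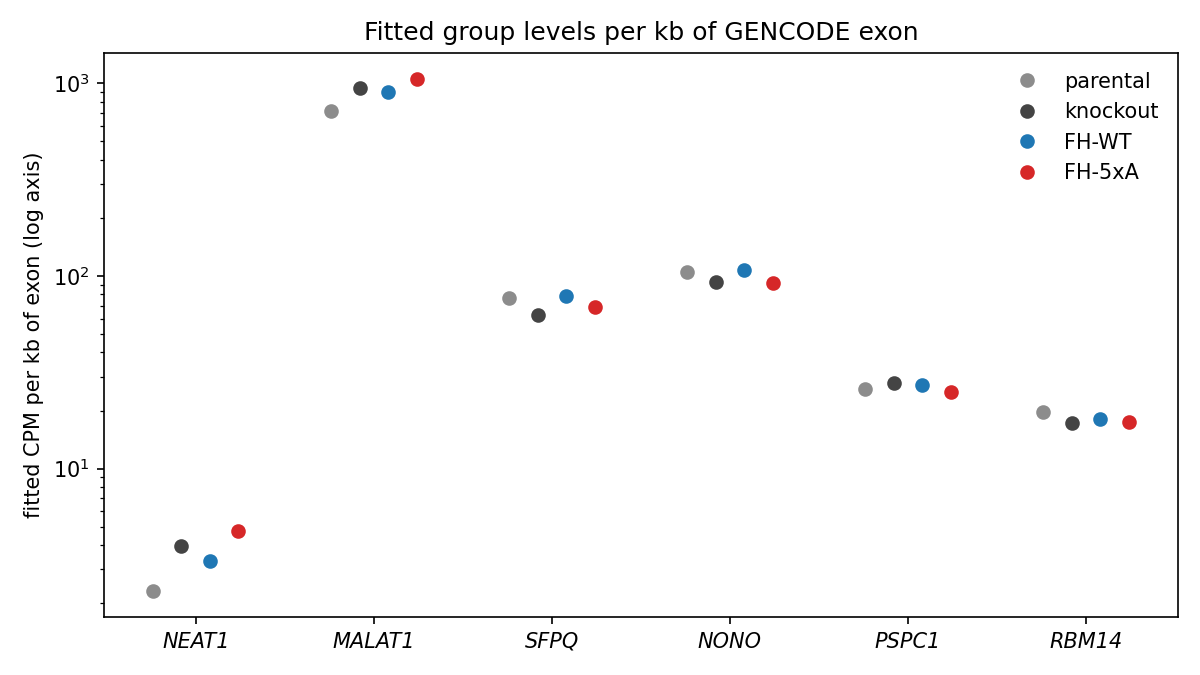
Fitted group level of each gene in CPM per kb of GENCODE exon, on a log axis, with 1 point for each of the 4 groups. MALAT1 lies between 711 and 1053, NEAT1 between 2.31 and 4.77, and the 4 protein genes lie between them.

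NEAT1 and MALAT1 lie in a gene-dense part of chromosome 11, so neighbouring genes were read for a shared shift. Of the 65 measured genes starting within 1000000 bases of the NEAT1 start, the median in knockout against parental cells was -0.05 in the authors' deposited table, with a range of -1.55 to 0.92. Only 2 of the 65 lay above NEAT1, and 13 were called higher and 17 lower, against 23.2% and 21.2% of all genes. In FH-5xA, the line with the most NEAT1 RNA, the median of the neighbours was above that of chromosome 11. The chromosome median is over its 830 measured genes other than NEAT1, and these include the neighbours. The neighbours' median against the knockout was 0.15 in the authors' deposited table, beside 0.02 for the 830 genes. NEAT1 itself was at 0.27 and MALAT1 at 0.16. In FH-5xA against parental cells 18 of the 65 were called higher and 6 lower in the authors' deposited table, beside 22.9% and 20.9% of all genes. For FH-5xA minus FH-WT the median of the 65 genes was 0.09, beside 0.02 for the 830 genes of the chromosome and 0.01 for all genes. There 4 of the 65 lay above NEAT1 and 2 were called, beside 4.11% of all genes. The part of this regional shift in the NEAT1 and MALAT1 values was not tested.

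Neither measured gene next to NEAT1 was called higher in the knockout. FRMD8, upstream of NEAT1, fell by 0.33 in the authors' deposited table (edgeR FDR 0.0368). FAUP4, a pseudogene between NEAT1 and MALAT1, stood at 0.14 in the authors' deposited table and was not called (edgeR FDR 0.532). In FH-5xA against parental cells FAUP4 was called higher, at 0.41 in the authors' deposited table (edgeR FDR 0.0343). For FH-5xA minus FH-WT, FRMD8 stood at 0.37 ± 0.14 and FAUP4 at 0.14 ± 0.17, the direction of NEAT1. Neither was called (chi-square with Benjamini-Hochberg adjustment, adjusted p = 0.0991 and 0.685). For SFPQ on chromosome 1, from 35176378 to 35193148, the 21 neighbours had a median of 0.14 in knockout against parental cells in the authors' deposited table, and 19 of them lay above SFPQ.

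The remaining protein genes are scattered. NONO lies on chromosome X from 71283192 to 71301168, PSPC1 on chromosome 13 from 19674752 to 19783019 and RBM14 on chromosome 11 from 66616582 to 66627347. Their neighbours had medians of -0.12, -0.05 and -0.03 in knockout against parental cells in the authors' deposited table. In each case the gene's own value lay within the range of its neighbours.

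**Figure D5:**
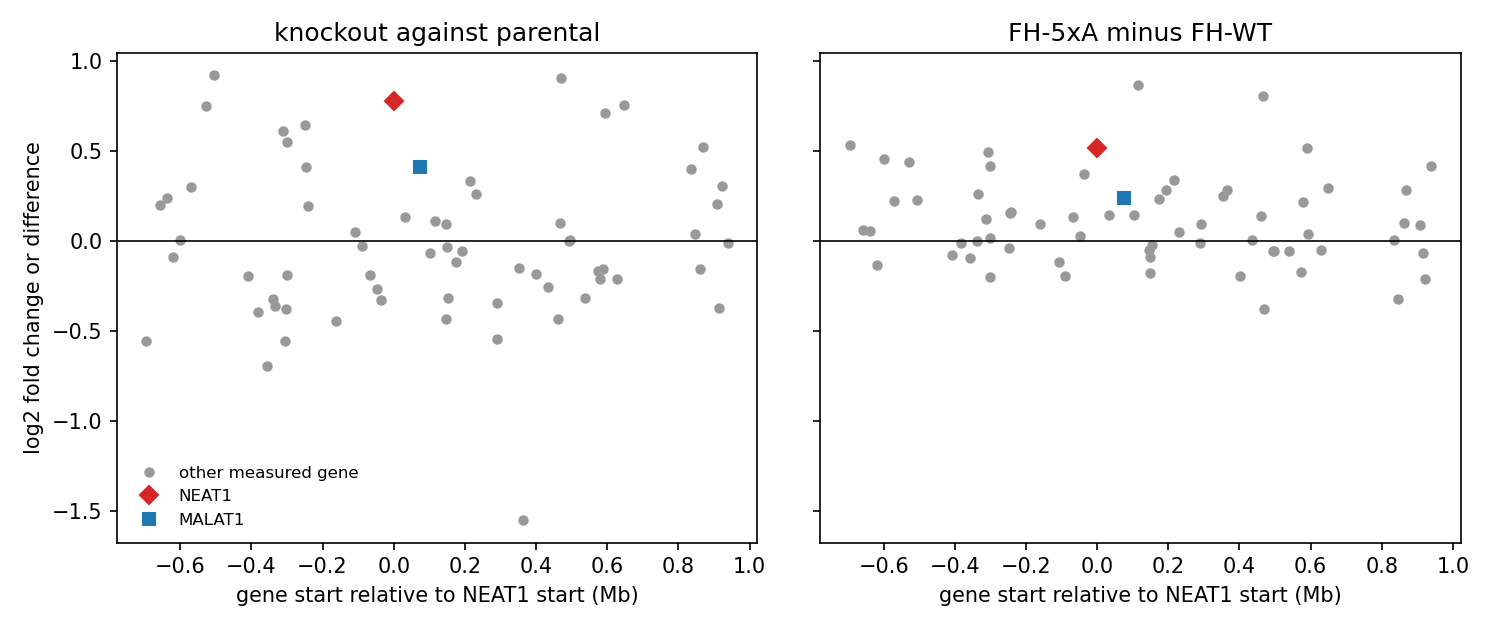
Log2 values of measured genes by the distance of their start from the NEAT1 start in Mb, for knockout against parental cells (left) and FH-5xA minus FH-WT (right), with NEAT1 as a red diamond and MALAT1 as a blue square. In the left panel NEAT1 at 0.78 has 2 of 65 neighbours above it, and genes to either side are spread above and below zero, while the right panel has a neighbour median of 0.09.

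Genes with a pattern like NEAT1 were found by the Euclidean distance over the 3 log2 fold changes against parental cells, among 8548 genes with a mean of at least 16 CPM. The nearest were GSE1 (distance 0.131), MIDN (0.132) and FSTL3 (0.143), which encodes a secreted inhibitor of activin. In the authors' deposited tables GSE1 stood at 0.68 for the knockout, 0.52 for FH-WT and 0.96 for FH-5xA. For MALAT1 the nearest were ZCCHC14 (0.0376), NFKB2 (0.0458), which encodes an NF-kappaB subunit, and DNAJA4 (0.0487), a DNAJ family cochaperone gene. ZCCHC14 stood at 0.45, 0.32 and 0.57 in the same 3 lines in the authors' deposited tables. The 3 fold changes share the parental libraries, and the distances are a description.

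Other core paraspeckle proteins were read one by one. HNRNPK, which favours the long NEAT1 form over the short one, fell by 0.34 ± 0.09 in the knockout against parental cells in the authors' deposited table (edgeR FDR 0.000685). SMARCA4, a chromatin remodelling ATPase, stood at 0.15 ± 0.13 there and was not called (edgeR FDR 0.388). Against the knockout SMARCA4 rose by 0.47 ± 0.13 with FH-5xA in the authors' deposited table (edgeR FDR 0.00759), and with FH-WT it stood at 0.27 ± 0.13 (edgeR FDR 0.199). HNRNPK was called in neither of these comparisons, at 0.11 ± 0.09 with FH-WT and -0.13 ± 0.09 with FH-5xA in the authors' deposited tables (edgeR FDR 0.478 and 0.367).

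Further proteins reported in paraspeckles gave 19 measured identifiers, of which 2 were called higher and 8 lower in the knockout against parental cells in the authors' deposited table, beside 23.2% and 21.2% of all genes. EWSR1, an RNA-binding protein gene, fell by 0.57 ± 0.07, NUDT21, a cleavage factor that promotes the short NEAT1 form, by 0.43 ± 0.08, RBMX by 0.41 ± 0.08 and the splicing regulator SRSF10 by 0.39 ± 0.08 in the authors' deposited table. The median of the 19 was -0.22, beside -0.01 for all genes. In FH-WT against the knockout 4 were called higher and none lower in the authors' deposited table (all genes 4.21% and 5.85%), among them RBMX at 0.28 ± 0.08 and HNRNPR at 0.38 ± 0.12. In FH-5xA 3 were called higher and none lower in the authors' deposited table (all genes 5.04% and 6.24%), among them AHDC1 at 0.88 ± 0.24. MATR3 is counted there under 2 identifiers, which may share reads and are uncertain.

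Nuclear speckle and SR protein genes, the compartment of MALAT1, had 24 of 26 measured, with 3 called higher and 11 lower in the knockout against parental cells in the authors' deposited table, beside 23.2% and 21.2% of all genes. SRRM2, a scaffold of the speckle, rose by 1.04 ± 0.20, while the splicing factors SRSF1 and SRSF3 fell by 0.45 ± 0.09 and 0.43 ± 0.08 and BCLAF1 by 0.40 ± 0.09 in the authors' deposited table. In FH-WT against the knockout 2 were called higher in the authors' deposited table (all genes 4.21%), ACIN1 (0.30 ± 0.09) and SRSF4 (0.40 ± 0.12). In FH-5xA against the knockout 3 were called higher in the authors' deposited table (all genes 5.04%), among them SRRM2 (0.87 ± 0.20) and the exon junction factor RNPS1 (0.48 ± 0.09). The median of the 24 was -0.21 in the knockout against parental cells and 0.16 and 0.02 for FH-WT and FH-5xA against the knockout.

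The factors that make or bind the triple-helix ends were read as RNase P subunits, the tRNA 3′ nuclease gene ELAC2 and METTL16, a methyltransferase that binds the MALAT1 helix. Of these 13, 11 were measured, and 5 were called lower and none higher in the knockout against parental cells in the authors' deposited table, beside 21.2% and 23.2% of all genes. The RNase P genes RPP14 and POP5 fell by 0.30 and 0.26 and POP4 and POP1 by 0.24 and 0.19 in the authors' deposited table (edgeR FDR 0.000113, 0.015, 0.0135 and 0.018). RPP25, at a mean log2 CPM of 3.16, fell by 0.43 there (edgeR FDR 0.0308). ELAC2 stood at -0.10 and METTL16 at 0.03 in the authors' deposited table, neither called (edgeR FDR 0.292 and 0.738). With the F distribution 1 gene of this list was called in the knockout against parental cells. Over all genes that setting still called 4902 in this comparison, beside 6695 by edgeR. In FH-5xA against the knockout RPP40 fell by 0.48 in the authors' deposited table (edgeR FDR 4.9e-05), and POP5 rose by 0.33 in FH-WT against the knockout (edgeR FDR 0.0148).

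Among other noncoding RNAs 6 of the 11 listed were measured. In the knockout against parental cells 1 was called higher and 2 lower, beside 23.2% and 21.2% of all genes. KCNQ1OT1, an imprinted antisense transcript, rose by 0.99 ± 0.09 in the knockout against parental cells in the authors' deposited table (edgeR FDR 2.66e-27). GAS5 and FIRRE fell by 0.26 and 0.32 in the authors' deposited table (edgeR FDR 0.0074 and 0.0302), while TUG1 stood at 0.03 and PVT1 at -0.06, neither called (edgeR FDR 0.819 and 0.642). MIAT stood at 0.36 and was not called either (edgeR FDR 0.0983). None of the 6 was called in FH-WT or FH-5xA against the knockout by edgeR in the authors' deposited tables, beside 10.1% and 11.3% of all genes. None had an unadjusted p under 0.05 there. With the F distribution, 0 genes of these paraspeckle, speckle, 3′ end and noncoding RNA lists were called in either comparison with the knockout. Each such call named above was thus lost. Over all genes the calls fell from 1516 to 86 for FH-WT and from 1699 to 92 for FH-5xA. The loss is therefore not particular to these lists.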

How the data were processed

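RNA-seq tables of group comparisons were used. Per the submitters' processing notes, the authors' tools were edgeR 3.8.6, featureCounts 1.4.6, TopHat2 2.0.12 and Cufflinks 2.2.1, with the build hg38/GRCh38. The annotation, filter, normalization factors and strand setting were not given in the sources used here. Each of the 5 deposited tables holds, per the file headers, log2 fold changes mean log2 CPM, a likelihood ratio score, and p-values with FDR, which the authors computed. Symbols matched 14974 of 15074 identifiers, and 15029 were in GENCODE 29. An SE was the absolute log2 fold change over the square root of the score. FH-5xA minus FH-WT was the difference of both knockout comparisons, with group variances solved by least squares from the 5 squared SEs, a chi-square test with 1 degree of freedom and Benjamini-Hochberg adjustment over 15072 genes; 2 genes were undefined. Group levels were fitted so that their mean CPM equals the deposited mean. The derivation was tested on data simulated with 1 known spread for all genes and an assumed depth per library. Because the spread was not estimated there, that test cannot decide between the chi-square and the F distribution.

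The planned count test gave way to the deposited tests, since the values are comparisons. The number of counts behind each value, and so its precision beyond the SE, is unknown. Named genes were the 6 members, the 3 nearest patterns and the adjacent measured genes. From each list came up to 4 called genes with the smallest p in knockout against parental, and up to 2 in each knockout comparison. ELAC2, METTL16, TUG1, PVT1, MIAT, KRT8, CDX2, KRT19, RPP25, RPP30 and SRSF7 were named after their values were seen. Some items of these lists and regions are not reported here. Members and lists were chosen with earlier results of these data known. Alternatives were an FDR of 0.01, an F distribution with 1 and 8 degrees of freedom, median centring, other gene sets for adjustment and other errors of the derived difference. Python 3.11.15, numpy 2.4.6, pandas 2.3.3, scipy 1.17.1 and matplotlib 3.10.9 were used.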

Additional observations from a re-analysis of the deposited data

Results flagged for a closer look

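In 10 of 96 genes read here (members, lists, similar patterns and neighbours) the effects of FH-WT and FH-5xA against the knockout differed by the derived test of FH-5xA minus FH-WT (chi-square, Benjamini-Hochberg adjusted over all genes), beside 4.11% of all genes. The 96 include genes picked because their fold changes lay near those of NEAT1 or MALAT1. Their differences resemble those of these members by construction, so 10 of 96 is not independent of that choice. RPP30 and SRSF7 are named only because they differed. NEAT1 differed by 0.52 (adjusted p = 0.00027). Of the genes with a similar pattern, GSE1 differed by 0.44 (adjusted p = 0.0014) and DNAJA4 by 0.28 (adjusted p = 0.022). The difference was -0.47 for RPP40 and -0.33 for RPP30, both RNase P subunits (adjusted p = 0.0010 and 0.020). RBMX stood at -0.28 and the SR protein gene SRSF7 at -0.27 (adjusted p = 0.023 and 0.024), while RNPS1 stood at 0.32 (adjusted p = 0.025). The epithelial marker CDH1 differed by 0.43 and COL1A1 by 0.79 (adjusted p = 0.0020 and 0.024). None of the 10 passed with the F distribution (adjusted p = 0.358) or with the errors against the knockout summed. These settings called 0 and 13 of all genes, so the loss is not particular to the 10.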

How the results depend on the processing

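No paired analysis was possible because the tables hold no values per library, and for the same reason no replicate was left out. Of the 6 genes, the count called in knockout against parental cells went from 3 to 2, with SFPQ lost, at an FDR of 0.01, with the F distribution and with the median of all genes subtracted. The count in FH-WT against parental cells went from 2 to 1 at an FDR of 0.01 and to 1 with the F distribution. The count in FH-5xA minus FH-WT went from 1 to 0 with the F distribution, to 0 with the squared errors against the knockout summed and to 0 with the difference of the parental comparisons. Both sums count the shared group's variance again. The unadjusted p of NEAT1 was 3.9e-07 as reported, and 0.00096, 0.00029 and 0.00036 under these 3 settings. With 1 variance for all groups of a gene NEAT1 was still called, but this setting called more of all genes, 754 beside 620 as reported. The counts over the 6 genes were the same under both other gene sets for adjustment. Near zero, ZMYM5 beside PSPC1 changed sign to 0.00017 (knockout against parental) and SRSF3 to -0.00266 (FH-5xA against the knockout) when the median was subtracted. Over all genes, FH-WT against the knockout called 1516, or 688 at an FDR of 0.01 and 86 with the F distribution. FH-5xA against the knockout called 1699, or 895 and 92. FH-WT against parental cells called 5180, or 3195 with the F distribution. FH-5xA minus FH-WT called 620, or 182 at an FDR of 0.01, 0 with the F distribution, and 13 and 17 with summed errors against the knockout and parental cells. The cause was not tested. Depth per library is unknown, so the limit it sets on weakly expressed genes cannot be given.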
